A study of Mus musculus with 8 samples.

Results

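The genes described here encode proteins of blood coagulation and of plasminogen activation: the proteases F7 and F10, the cofactors F3 and F5, the fibrin-crosslinking F13a1, the inhibitors and anticoagulant receptors Tfpi, Thbd and Procr, and the urokinase system Plau and Plaur. They were picked by symbol, because F7 and F10 were lower in the knockout samples, and all 10 were found among the 15867 genes of the table. All 10 passed the filter on low values, a mean normalized count of at least 10. RNA came from adipose tissue macrophages selected for F4/80, a surface protein of mature macrophages encoded by Adgre1, after the mice had spent 20 weeks on a high-fat diet. The 4 control samples had the genotype Mirc11fl/fl Mirc22fl/fl Lyz2+/+ and the 4 knockout samples Mirc11fl/fl Mirc22fl/fl Lyz2Cre/Cre. Every sample therefore carried loxP-flanked Mirc11 and Mirc22, the clusters that encode microRNAs of the families miR-23, miR-24 and miR-27, and the knockout samples also carried Cre in place of both copies of Lyz2, a gene of myeloid cells. No group had Cre with intact clusters, so the loss of the clusters, of Lyz2 and the presence of Cre cannot be told apart. The labels number the samples within a group but do not say whether each came from a separate mouse; the p-values then reflect only how these samples spread, which may be technical.

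Coagulation starts when tissue factor, the product of F3, meets factor VII, the product of F7. The complex activates factor X (F10), which with its cofactor factor V (F5) makes thrombin, and thrombin turns fibrinogen into fibrin that factor XIII (F13a1) crosslinks. Factors VII and X are serine proteases that need vitamin K for their activity and are made mainly by the liver, while macrophages are a known source outside it. Urokinase (Plau), held at the cell surface by its receptor (Plaur), turns plasminogen into plasmin, which dissolves fibrin and helps macrophages move through tissue.

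F7 and F10 are neighbours on chromosome 8, both on the plus strand, F7 from 13026034 to 13035809 and F10 from 13037308 to 13056676 in mm10, with 1498 bases between them. Their promoters, from 250 bases before to 50 bases after the start of each gene, are shown because these adjacent genes were both lower in the knockout group (RefSeq, GRCm38.p6, plus strand, 5′ to 3′). Capitals mark the matches, on either strand, to the motifs that were searched.
F7 promoter, chr8:13025784-13026083: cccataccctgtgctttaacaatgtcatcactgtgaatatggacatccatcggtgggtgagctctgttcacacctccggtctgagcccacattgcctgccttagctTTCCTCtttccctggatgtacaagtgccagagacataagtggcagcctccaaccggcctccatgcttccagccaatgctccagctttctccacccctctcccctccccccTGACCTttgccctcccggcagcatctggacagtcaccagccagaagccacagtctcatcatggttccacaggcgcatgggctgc
F10 promoter, chr8:13037058-13037357: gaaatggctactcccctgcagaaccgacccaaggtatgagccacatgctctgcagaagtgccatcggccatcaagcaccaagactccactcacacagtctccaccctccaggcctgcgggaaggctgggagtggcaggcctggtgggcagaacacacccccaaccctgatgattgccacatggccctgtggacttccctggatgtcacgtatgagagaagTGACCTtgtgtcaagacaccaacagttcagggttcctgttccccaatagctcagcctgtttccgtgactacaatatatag

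The motifs were GAGGAA, the core of sites for the macrophage factor PU.1, TGANTCA for AP-1, TTGCNNAA for C/EBP factors, CACGTG for the MITF and TFE factors, GGGCGG for Sp1, and AGGTCA, a half-site of nuclear receptors that was added after the sequences had been read. F7 held 1 match to GAGGAA, on the minus strand, and its leftmost base as printed lies 144 bases before the start. The motif was found in 27% of the 15154 promoters of tested genes. The half-site AGGTCA occurred once in each, on the minus strand, against 12.8% of all promoters. Its leftmost base as printed lies 34 bases before the start of F7 and 30 bases before that of F10. The other 4 motifs had no match in either window. They were present in 5.82% (TGANTCA), 8.98% (TTGCNNAA), 9.18% (CACGTG) and 57.9% (GGGCGG) of all promoters. These matches are descriptions of letters.

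The microRNAs of the deleted clusters pair with messages through their seed, bases 2 to 8, shown in capitals in the mature sequences (RefSeq, GRCm38.p6, 5′ to 3′); miR-23b-3p belongs to them as well. They are printed because sites for them were looked for in the messages of all 10 genes.
miR-23a-3p: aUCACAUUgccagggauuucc
miR-27a-3p: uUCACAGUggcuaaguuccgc
miR-27b-3p: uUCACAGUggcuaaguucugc
miR-24-3p: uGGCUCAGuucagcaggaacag
miR-27a-3p and miR-27b-3p share a seed, and miR-24-3p is encoded in both clusters. In the 3′ untranslated region annotated as longest for each gene, the 7-base complements AATGTGA (miR-23), ACTGTGA (miR-27) and CTGAGCC (miR-24) were searched. Among 14796 tested genes with such a region, 16.8% held the first, 17.8% the second and 19.2% the third, and 41.1% held at least 1 of them. F7, with a region of 493 bases, and F10, with 794, held none.

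Of the 10 genes, 3 held a complement, 5 in all, and these were Tfpi, Plau and Plaur. Each is shown with up to 10 bases on either side and the complement in capitals (mm10, strand of the gene).
Tfpi, miR-24, chr2:84442784-84442810, minus strand: cgcctaagcaCTGAGCCAgggccgtcc
Tfpi, miR-23, chr2:84440439-84440465, minus strand: tgtaatttcaAATGTGAgtaccggtgt
Plau, miR-27, chr14:20843058-20843084, plus strand: ctaactccagACTGTGAtgcggggcca
Plau, miR-23, chr14:20843361-20843385, plus strand: gtgatcaataAATGTGAtttttctg
Plaur, miR-24, chr7:24475472-24475491, plus strand: ctcCTGAGCCggcagccctg
The miR-24 match of Tfpi is the 8-base form, which adds an A after the complement and was found in 8.77% of all such regions. None of these 3 genes passed the test below (limma adjusted p = 0.669 for Tfpi, 0.558 for Plau and 0.0742 for Plaur), and the direction of their differences was not the same: 0.17 for Plau, -0.06 for Tfpi and -0.25 for Plaur on the log2 scale.

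The libraries held 31789395 to 46621080 reads, recovered from the normalized values. Lyz2 measured 156727 to 204853 among controls and 174 to 273 among knockout libraries, in keeping with the genotype labels of all 8 samples; the cluster microRNAs were not analysed here. Values below are normalized gene counts as the authors deposited them, with mean ± SD over n = 4 per group. A difference is the knockout mean less the control mean on the log2(normalized count + 1) scale, fitted with limma and given with its standard error (SE), and adjusted p-values are Benjamini-Hochberg over 15862 genes. At an adjusted p under 0.05, 3.61% of all tested genes were called, 2.38% as lower and 1.24% as higher, and the groups did not overlap for 13.7% of genes (8.21% with the knockout group lower and 5.52% with it higher). edgeR called 3.51% of genes and DESeq2 10.9%, the share also called in the authors' deposited table (10.9%). The summed level of 5 macrophage markers ran from 144334 to 180361 in control and from 123011 to 130854 in knockout libraries. Of the 5, Csf1r and Cd68 fell (adjusted p = 0.0389 and 0.0190; their calls were lost when 1 library was left out in 7 and 3 of 8 fits), and 3 did not pass. These were Adgre1 itself, at 47340 ± 7761 and 40553 ± 2504 (-0.21, SE 0.12, adjusted p = 0.346), Mertk (-0.10, adjusted p = 0.683) and Fcgr1 (-0.57, adjusted p = 0.122). All 5 had negative differences. For 3 of them, Csf1r, Cd68 and Fcgr1, the unadjusted p in limma was under 0.05, beside 10.4% of all genes as lower. The groups of these 3 did not overlap, beside 8.21% of all genes. edgeR called 2 of the 5 as lower and DESeq2 called 3, with Fcgr1 at an adjusted p of 0.0169 in DESeq2. In bulk samples, fewer cells of a type and less RNA per cell cannot be told apart.

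F7 was the member with the largest difference. It measured 3055, 3003, 2595 and 2535 in control replicates 1 to 4, against 908, 774, 960 and 883 in knockout replicates 1 to 4. Every knockout library lay below every control library, and neither group spread by more than 1.24-fold between its lowest and highest library. The means were 2797 ± 270 and 881 ± 78.4, so that the knockout mean was 0.315 of the control mean (difference -1.66, SE 0.09). Because this gene chose the list, its difference is a description and no test is given.

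F10 followed in the same direction with a smaller difference. Its values were 823, 1005, 948 and 855 in control replicates 1 to 4, against 591, 538, 671 and 430 in knockout replicates 1 to 4. The groups again did not overlap, although knockout replicate 4 stood lower than the other knockout libraries. The means were 908 ± 83.8 and 557 ± 101, a ratio of 0.614 (difference -0.72, SE 0.13), also given without a test. The ratio of F7 to F10 within a library ran from 2.74 to 3.71 among controls and from 1.43 to 2.05 among knockout samples, so the neighbours did not change in proportion. In the same libraries the mean summed level of the macrophage markers was 0.776 of control. Its part in the values of F7 and F10 was not tested.

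**Figure D1:**
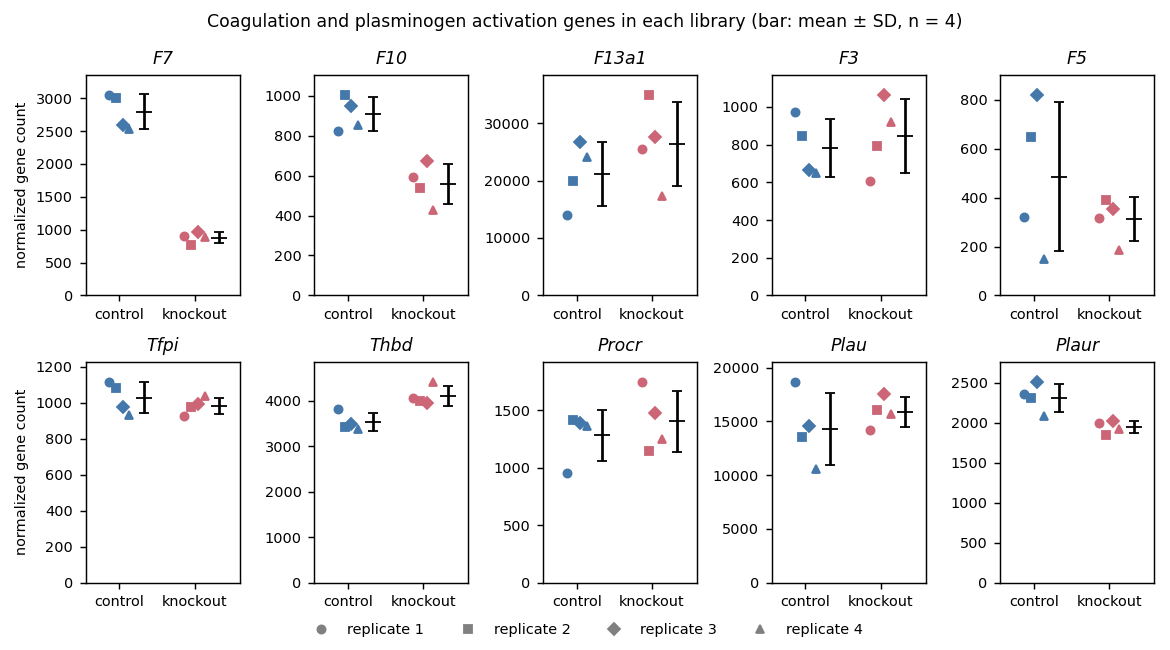
Normalized gene count (vertical axis, from 0) of each of the 10 genes in the 4 control (blue) and 4 knockout (red) libraries, with the replicate number given by the symbol and the black bar showing mean ± SD. The groups do not overlap for F7, F10, Thbd and Plaur, and the control libraries of F5 run from 150 to 821.

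The genes around F7 and F10 were examined next, since both lie in a stretch of 9 protein-coding neighbours whose 5′ ends fall within 250 kb. All 9 were measured, and 1 was called, as lower, beside 2.38% of all genes called lower. Mcf2l, a guanine nucleotide exchange factor gene that ends just before F7, measured 2516 ± 318 in control and 2993 ± 192 in knockout samples, in the opposite direction to F7 (0.26, SE 0.09, adjusted p = 0.162). Proz, the gene of protein Z, a vitamin K-dependent protein that follows F10, was barely detected, at 8.0 to 20.0 among controls and 5.1 to 20.9 among knockout libraries. Cul4a, a ubiquitin ligase scaffold, measured 3160 ± 94.7 and 3086 ± 43.1 (-0.03, SE 0.04, 95% interval -0.13 to 0.06, adjusted p = 0.699).

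Farther along, Tmco3, a membrane protein gene, fell from 2008 ± 111 to 1625 ± 29.0 (-0.30, SE 0.05, adjusted p = 0.0199). Its control libraries ran from 1892 to 2157 and its knockout libraries from 1600 to 1666. When single libraries were left out in turn, Tmco3 stayed past the threshold in 4 fits and missed it in 4, those without control replicate 3 or knockout replicate 2, 3 or 4. Pcid2 (-0.17, SE 0.05, adjusted p = 0.0977), the lysosomal membrane protein gene Lamp1 (-0.17, SE 0.07, adjusted p = 0.188) and the lowly expressed Adprhl1 (-0.55, SE 0.25, adjusted p = 0.257) also had groups that did not overlap, while Grtp1 (-0.09, SE 0.25) and Dcun1d2 (-0.12, SE 0.08) overlapped. Of the 9 neighbours, 4 thus had groups that did not overlap, each lower in knockout, beside 8.21% of all genes. The measured genes next to F7 and F10 had fitted differences from -0.55 to 0.26, none as low as the fitted values of F10 and F7. For 2 lowly expressed neighbours the 95% interval included the F10 value of -0.72. These were Adprhl1 (-1.12 to 0.03) and Proz (-0.38, SE 0.46, -1.41 to 0.66), so they are not set apart from F10. Mir23a of Mirc11 lies on the same chromosome, 71.2 megabases from F7.

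**Figure D2:**
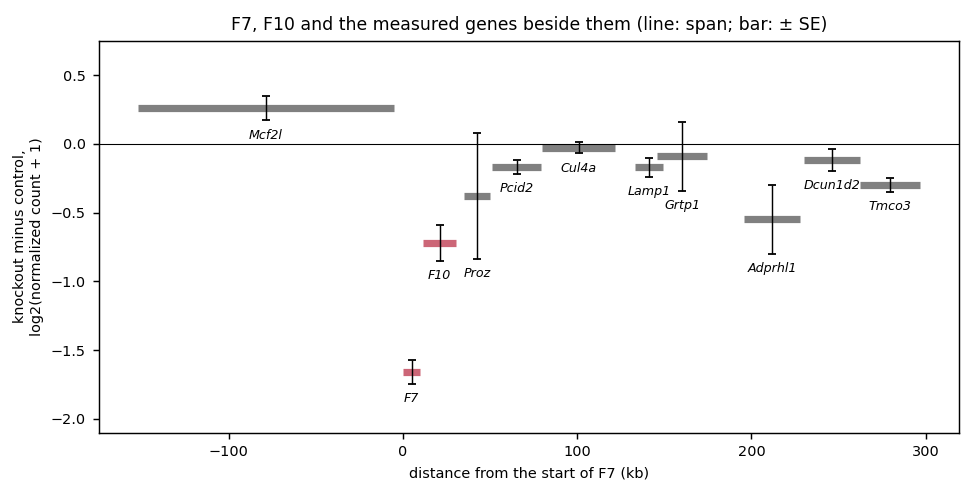
Fitted difference, knockout minus control on the log2 scale (vertical axis), against distance from the start of F7 in kb for F7, F10 (red) and the 9 measured neighbours (grey). Horizontal lines give the span of each gene and vertical bars ± SE. The fitted values of F7, -1.66, and F10, -0.72, lie below those of all neighbours, although the 95% intervals of Adprhl1 and Proz include -0.72.

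To see which other transcripts had the same profile, genes with a mean of at least 100 were ranked by the root-mean-square difference between their log2 values and those of F7 over the 8 libraries, each gene centred on its own mean. Among 11933 genes the closest to F7 was Cyp4f39, a cytochrome P450 gene, at 0.23 log2 units per library, with 153 ± 38.4 in control and 48.4 ± 10.5 in knockout samples. Vsig8, of the immunoglobulin superfamily, and Itgax, the integrin CD11c, came next, each at 0.27. Vsig8 measured 2896 ± 775 and 1046 ± 261, and Itgax 28377 ± 3118 and 12601 ± 1532. For F10 the nearest were Dpep3, a dipeptidase gene, at 0.14, with 128 ± 8.88 in control and 85.9 ± 10.1 in knockout samples, and Fam83f at 0.15, with 1316 ± 25.4 and 935 ± 105. All these profiles share their libraries and the step between the groups.

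The cofactors and the crosslinking enzyme showed no call. F3, tissue factor, measured 972, 846, 664 and 648 in control replicates 1 to 4, against 605, 795, 1065 and 920 in knockout replicates 1 to 4. The groups overlapped over most of their range, and the fitted difference was 0.10 (SE 0.19, 95% interval -0.33 to 0.53, adjusted p = 0.803). F13a1, the A subunit of factor XIII and a marker of some monocytes and tissue macrophages, was abundant. It measured 13926, 19984, 26623 and 24177 in control and 25422, 34949, 27630 and 17271 in knockout replicates 1 to 4. Single libraries differed by up to 2.02-fold within a group, more than the group means did, and the difference was 0.31 (SE 0.25, 95% interval -0.25 to 0.87, adjusted p = 0.513).

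F5, the cofactor of factor X, varied more between control libraries than any of the other 9 genes. It measured 321, 646, 821 and 150 in control replicates 1 to 4, a 5.48-fold range, and 315, 391, 354 and 187 in knockout replicates 1 to 4. The knockout values lay inside the control range, and the difference of -0.41 had an SE of 0.49 (95% interval -1.53 to 0.71, adjusted p = 0.684). Without control replicate 3 the difference was -0.06 and without control replicate 4 it was -0.88, neither called.

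The libraries high in F5 were also high in Prg4 and Alox15, genes known from macrophages of the serous cavities. Alox15, a lipoxygenase, measured 877, 1843, 1986 and 492 in control and 891, 989, 818 and 496 in knockout replicates 1 to 4. Prg4, proteoglycan 4, measured 1385, 3059, 3322 and 804 in control and 1316, 1553, 1182 and 902 in knockout replicates 1 to 4. Over the 8 libraries the ratio of F5 to Alox15 ran only from 0.304 to 0.432. By the same root-mean-square measure, applied to F5 after its values had been seen, Alox15 (0.15), Prg4 (0.19) and Slpi (0.23), a protease inhibitor gene, were the 3 nearest of 11933 genes. Gata6, a defining factor of serous cavity macrophages, did not vary as widely, with 318, 361, 440 and 260 in control and 436, 462, 460 and 389 in knockout replicates 1 to 4. Others listed for these macrophages peaked elsewhere: Timd4, Cd5l and Icam2 in knockout replicate 1 (525, 1977 and 1846) and Selp in knockout replicate 4 (3213). Knockout replicates 1 and 4 were the highest libraries for both Selp and Icam2, and also for the endothelial marker Pecam1 (27631 and 27562). The part of endothelial RNA in Selp and Icam2, and so in the sum below, was not tested. Garnl3 was highest in control replicate 2 (379). The summed level of the 8 listed genes of these macrophages was 5670 to 11443 among controls and 7604 to 10471 among knockout libraries. Of the 8, 0 passed in limma, edgeR or DESeq2, with 2 higher at an unadjusted p under 0.05, beside 10.8% of all genes. Their part in the variation of F5 was not tested.

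**Figure D3:**
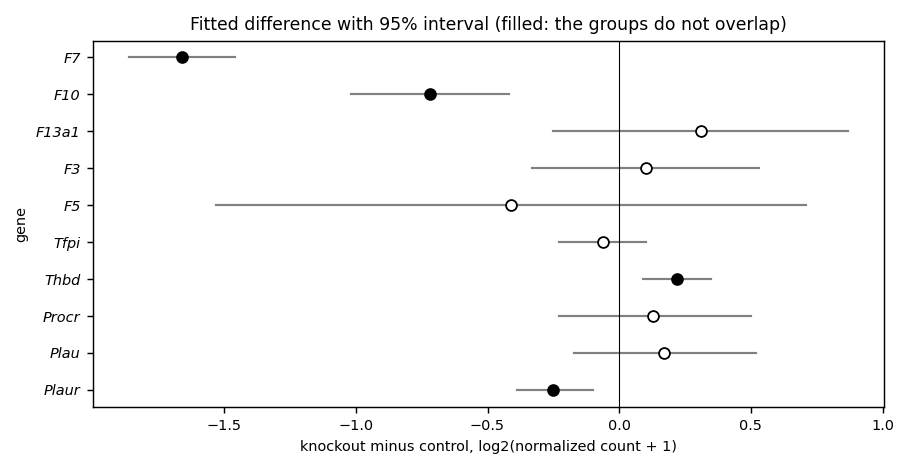
Fitted difference, knockout minus control of log2(normalized count + 1) on the horizontal axis, with its 95% interval for each of the 10 genes. Filled points mark genes whose groups do not overlap, and the widest interval is that of F5, from -1.53 to 0.71.

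Tfpi, the inhibitor of the tissue factor and factor VII complex, measured 1115, 1084, 976 and 933 in control and 925, 976, 991 and 1036 in knockout replicates 1 to 4. The groups overlapped and the difference was -0.06 (SE 0.07, 95% interval -0.23 to 0.10, adjusted p = 0.669). Thbd, thrombomodulin, which turns thrombin into an activator of protein C, measured 3824, 3433, 3491 and 3382 in control and 4067, 3999, 3941 and 4414 in knockout replicates 1 to 4. All knockout libraries lay above all control libraries, but the difference of 0.22 did not pass (SE 0.06, 95% interval 0.09 to 0.35, adjusted p = 0.0800). With library totals set equal, a setting under which the median difference over all genes was 0.06 in place of 0.00, Thbd passed (0.28, adjusted p = 0.0408), as it did with quantile normalization (0.0493), array weights (0.0324) and DESeq2 (0.0157).

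Procr, the endothelial protein C receptor, measured 954, 1415, 1386 and 1362 in control and 1744, 1144, 1471 and 1251 in knockout replicates 1 to 4. Both groups covered much the same range (0.13, SE 0.16, 95% interval -0.23 to 0.50, adjusted p = 0.689). Control replicate 1, the lowest library, decided the sign: without it the difference was -0.0031. The summed level of 10 endothelial markers was 73914 to 124032 among controls and 114648 to 163166 among knockout libraries. All 10 had positive differences, from 0.24 to 0.69. Of the 10, 0 passed in limma or edgeR and 3 were higher in DESeq2. At an unadjusted p under 0.05, 7 were higher, beside 10.8% of all genes. None of the 10 had a level near 0: Pecam1 ran from 12961 to 27631 over the 8 libraries. Control replicate 1 was lowest of the controls in that sum and in Procr but highest of the controls in Thbd. The part of endothelial RNA in Thbd and Procr was not tested.

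Plau, urokinase, was among the abundant members. It measured 18665, 13539, 14528 and 10551 in control and 14200, 16066, 17550 and 15711 in knockout replicates 1 to 4. The knockout values all lay within the control range (0.17, SE 0.15, 95% interval -0.17 to 0.52, adjusted p = 0.558). Plaur, the urokinase receptor, measured 2357, 2304, 2511 and 2089 in control and 1997, 1845, 2023 and 1926 in knockout replicates 1 to 4. Each knockout library was below each control library, by a small margin, and the difference of -0.25 did not pass in limma (SE 0.06, 95% interval -0.39 to -0.10, adjusted p = 0.0742). It passed without control replicate 4 (-0.30, adjusted p = 0.0480), with array weights (adjusted p = 0.0377) and in DESeq2 (0.0128). The authors' deposited comparison gives an adjusted p of 0.0128 for Plaur and 0.0157 for Thbd. It used the same 8 libraries as the DESeq2 fit, so it is no separate test.

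Plau and F3 are also made by fibroblasts. The summed level of 10 fibroblast and preadipocyte markers was 168759, 120526, 129074 and 101368 in control replicates 1 to 4, against 138815, 150516, 210849 and 187150 in knockout replicates 1 to 4. It was highest in control replicate 1 and knockout replicate 3, the libraries that were also highest within their group for both Plau and F3. Of these markers 1 rose, Thy1, from 523 ± 25.9 to 784 ± 67.3 (0.58, SE 0.08, adjusted p = 0.00824), and 9 did not pass. All 10 had positive differences, 5 with an unadjusted p under 0.05, beside 10.8% of all genes, and DESeq2 called 3 as higher. The part of fibroblast RNA in Plau and F3 was not tested.

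**Figure D4:**
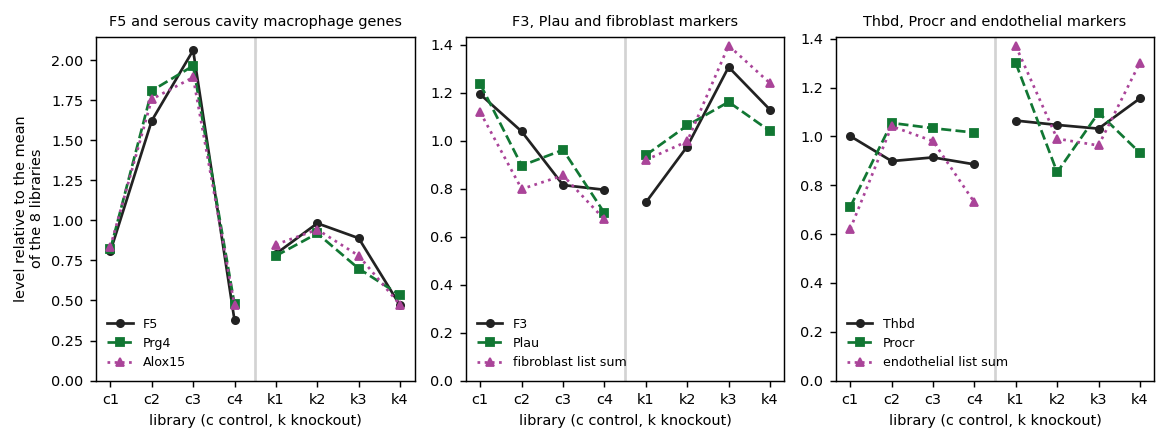
Level in each library relative to the mean of the 8 libraries (vertical axis, from 0) for control libraries c1 to c4 and knockout libraries k1 to k4, with lines joining libraries of a group for legibility only. F5, Prg4 and Alox15 share their peaks in c2 and c3, and F3, Plau and the fibroblast sum are highest in c1 and k3 within their groups.

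Among the 8 genes that did not choose the list, 0 passed in limma or edgeR, and in DESeq2 1 was lower (Plaur) and 1 higher (Thbd). The same pair had an unadjusted p under 0.05 in limma, as 21.2% of all genes did (10.4% lower and 10.8% higher), and these were also the members beyond F7 and F10 whose groups did not overlap. The median difference of the 8 was 0.12, beside 0.00 over all genes tested.

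Levels of different genes were compared per kilobase of the longest annotated coding transcript. In control samples Plau (6115 ± 1432 per kb) and F13a1 (5359 ± 1406) were highest and did not differ beyond their spread. Plaur (1537 ± 116) and F7 (1504 ± 145) followed at the same level, then Thbd (949 ± 53.6) and Procr (801 ± 136), F3 (418 ± 82.9) and F10 (363 ± 33.5), Tfpi (259 ± 21.7) and F5 (65.2 ± 41.0). In knockout samples F7 had dropped to 474 ± 42.2 per kb, below Thbd (1103 ± 57.0) and Procr (878 ± 166) and level with F3 (452 ± 104). F10, at 223 ± 40.3 per kb, then lay beside Tfpi (247 ± 11.6).

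The rest of the system was read from 5 lists of 47 genes, of which 32 were measured. limma called 1 of these as higher and 0 as lower, beside 1.24% and 2.38% of all genes, and 31 did not pass. The lower calls numbered 1 with edgeR and 2 with DESeq2. Their median difference was 0.06. At an unadjusted p under 0.05, 3 were lower and 8 higher, beside 10.4% and 10.8% of all genes. The gene called was Plat, tissue-type plasminogen activator, the other enzyme that activates plasminogen. It measured 1701, 1387, 1550 and 1334 in control and 1942, 2213, 1962 and 1996 in knockout replicates 1 to 4, with no overlap. Plat rose from 1493 ± 166 to 2028 ± 125 (0.45, SE 0.08, adjusted p = 0.0263), but of 8 fits without 1 library each the call was kept in 1, the fit without control replicate 1, and in the other 7 the adjusted p was 0.0543 to 0.0664. edgeR (adjusted p = 0.0288) and DESeq2 (2.17e-04) on the same libraries also called Plat, while limma with a block for replicate number did not (adjusted p = 0.198). Plat is also a gene of endothelial cells, whose markers are given above, and their part in its rise was not tested.

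In the plasminogen list of 10 measured genes, Lrp1, the scavenger receptor that clears protease and inhibitor complexes, had the highest normalized count, while per kilobase in controls it (7789) lay below Anxa2 (28950), S100a10 (8623) and Eno1 (8435). It measured 120220, 108174, 113461 and 121984 in control and 83181, 87233, 93473 and 92785 in knockout replicates 1 to 4, again with no overlap. Its difference of -0.38 (SE 0.09) had an adjusted p of 0.0510 with limma, 0.0266 with edgeR and 4.34e-07 with DESeq2, and 0.0281 where only genes with a mean of at least 50 were tested. With quantile normalization the difference was -0.14 (adjusted p = 0.418). The knockout mean of Lrp1 was 0.769 of control, and that of the summed macrophage markers was 0.776 of control. The part of macrophage RNA in the values of Lrp1 was not tested.

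Of the 4 protease-activated receptors, which sense thrombin and related enzymes, 0 passed in limma or edgeR and 1 was higher in DESeq2. At an unadjusted p under 0.05, 1 was lower and 2 were higher, beside 10.4% and 10.8% of all genes. F2r, the main thrombin receptor and the most abundant, measured 472, 529, 418 and 484 in control and 607, 610, 549 and 673 in knockout replicates 1 to 4 (0.36, SE 0.09, adjusted p = 0.0726; 0.0135 in DESeq2). F2rl2, named after its values were seen, was low, at 26.1 to 33.9 among controls and 15.8 to 18.1 among knockout libraries (-0.75, SE 0.19, adjusted p = 0.0733). Both genes had groups that did not overlap, in opposite directions.

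Of 13 further procoagulant genes 5 were measured. The most abundant was Vwf, the von Willebrand factor of endothelial cells and platelets, at 24878 ± 5936 in control and 32507 ± 6251 in knockout samples (0.40, SE 0.19, adjusted p = 0.270). F9, named after its values were seen and like F7 and F10 a vitamin K-dependent protease, lay at 43 to 61 among controls and 39 to 47 among knockout libraries. The 6 genes of the vitamin K cycle and of factor processing and secretion, which serve F7 and F10 among others, had differences between -0.06 and 0.19. The protease gene Furin had the highest normalized count of them (5369 ± 496 and 5541 ± 356), but per kilobase in controls it (1239) lay below Mcfd2 (1657) and Vkorc1 (1518). Among 7 measured anticoagulant genes Gas6, a vitamin K-dependent ligand of the TAM receptors, was the most abundant, at 17671 ± 2702 and 16751 ± 2755 (-0.08, SE 0.14, adjusted p = 0.798). In each of these 3 lists 0 genes passed in limma or edgeR. In each, 1 was higher at an unadjusted p under 0.05, beside 10.8% of all genes. DESeq2 called 1 procoagulant gene, F8, as higher.

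**Figure D5:**
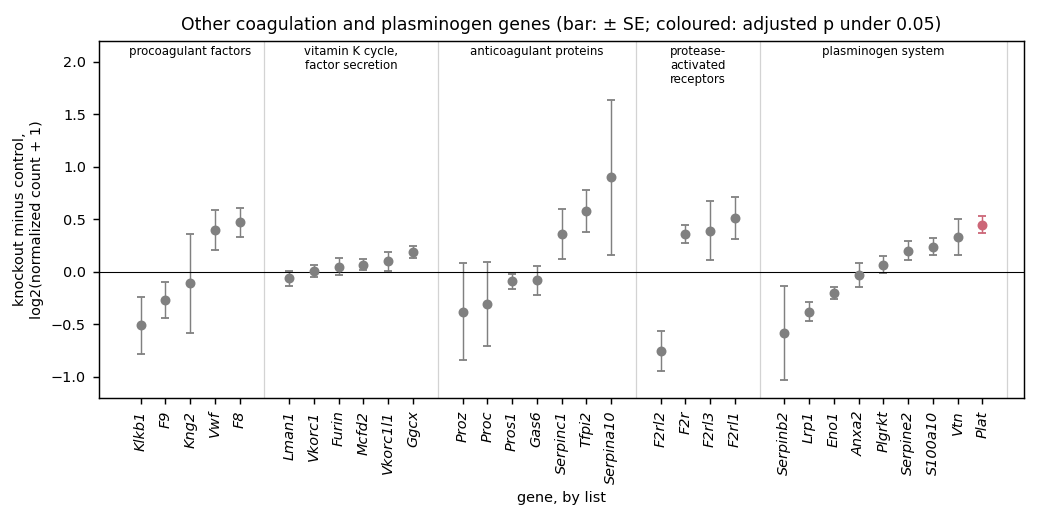
Fitted difference, knockout minus control of log2(normalized count + 1) on the vertical axis, ± SE for 31 of the 32 measured genes of the 5 lists. The coloured point is Plat at 0.45, the gene of these lists past the adjusted p of 0.05.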

How the data were processed

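Poly(A)-selected libraries from F4/80-selected adipose tissue macrophages were sequenced, per the labels' protocols. Tools named in the submitters' processing notes, without roles, are cutadapt, FastQC, DESeq2 and Salmon, with mm10 as the build. The authors deposited normalized gene counts, a signal equal to whole reads divided by 1 factor per library: within 0.01 reads, 100% of values came out whole, although in control replicate 4 a step near 1 hides this at low values. They also deposited a comparison whose log2 fold change sets control over knockout, score columns (standard error and statistic) and p-values, per the file headers.

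limma 3.58.1 (R 4.3.3, eBayes with trend, two-sided) was run on log2(value + 1) for 15862 genes with a mean of at least 10, with no covariate. The pseudocount understates differences of low genes. edgeR 4.0.16 and DESeq2 1.42.0 on recovered reads called 556 and 1557 genes and served as alternatives, and whether counting used strand is not stated in the labels. The script was tested on simulated data. Libraries of a group differed beyond counting noise (lowest chi-square per gene between any pair, 8.99). The members, the lists and the motifs were chosen with earlier results of these data known. Named genes are the members, the neighbours of F7 and F10, the called genes and the one with the highest normalized count in each list, and those with the nearest profiles; a gene of the plasminogen list and 1 of the 3 profiles nearest to F10 are not reported here. Positions and untranslated regions came from GENCODE M21 on mm10. Promoter sequences were matched by symbol for 8 of the 10 members and mature sequences for 4 of 5 microRNAs; protein sequences were not used here. Platelet, hepatocyte, mesothelial and neutrophil marker lists were examined as well.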

Additional observations from a re-analysis of the deposited data

Results flagged for a closer look

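In a check of 50 groups of 4 libraries (25 genes), 2 held a library whose gap to the next exceeded the critical value of Dixon's test at the 95% level, where chance flags about 1 group in 20. Procr measured 954 in control replicate 1, far below the 1362 to 1415 of the other controls. Cul4a measured 3020 in control replicate 4, against 3192 to 3227 in the other controls.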

How the results depend on the processing

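Over 18 alternatives the differences of F7 and F10 ran from -1.71 to -1.60 and from -0.81 to -0.60. These 2 genes chose the list, so their values here are descriptions that support nothing. For the same reason counts of members called lower are not given. The number of genes called was 931 with array weights, 1557 in DESeq2 and 163 to 502 when leaving out 1 library. Replicate numbers are shared by the groups. Deviations of same-numbered samples correlated at -0.293 to -0.036, so no shared deviation was seen, but this cannot exclude that the numbers pair the samples. A replicate block left 7 genes called, with 0 pathway genes as higher and 0 neighbours among them. Leaving out 1 library gave 0 to 1 pathway genes called higher and 0 to 1 neighbours. The count of members called higher was 1 with equal library totals, quantile normalization, array weights or DESeq2. Pathway genes called lower numbered 1 with a mean of at least 50, array weights or edgeR and 2 in DESeq2; those called higher numbered 2 with array weights and 3 in DESeq2. Neighbours called numbered 0 with equal totals, 2 with array weights and 3 in DESeq2. Leaving out 1 library turned the sign of F3 (-0.02 to 0.25), Procr (-0.0031 to 0.22), Furin (-0.02 to 0.09) and Gas6 (-0.17 to 0.04), none of them called. With equal library totals the split of calls was 245 higher and 244 lower, against 196 and 377. The causes of these shifts were not tested. Genes near 10 normalized counts, such as Proz, rest on 5 to 20 reads per library.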

Other observations

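Among the other marker lists, the mesothelial sum varied most between libraries: 9 genes summed to 831 to 1609 among controls and to 532 to 2511 among knockout libraries. Of this list, Upk1b rose from 21.2 ± 5.63 to 46.6 ± 6.67 (1.12, SE 0.22, limma adjusted p = 0.0328). In 7 of 8 fits without 1 library each its call was lost. Of the 9 mesothelial genes, limma and edgeR each called 1 as higher and DESeq2 called 3, with 0 called lower. Their differences were positive for 6 and negative for 3. At an unadjusted p under 0.05 in limma, 4 were higher, beside 10.8% of all genes, and 0 were lower. Krt8 measured 916 in knockout replicate 2 and 5.1 in knockout replicate 4. Over the 8 libraries Krt18 (13.2 to 386) and Krt19 (32.4 to 314) also ranged widely, while Msln ran from 96.6 to 226 and Wt1 from 104 to 184. Of 10 platelet and megakaryocyte genes 4 were measured, led by Pf4, which macrophages express as well (6886 ± 530 and 6212 ± 596), and Ppbp stayed between 28 and 63. Hepatocyte genes, of interest because the liver makes most F7 and F10, were low in count: 3 of 8 were measured, summing to 118 to 183 among controls and 46 to 186 among knockout libraries, and Alb measured 11.2 to 43.2 and 3.5 to 17.2. Most of these sums in controls came from Hnf4a, a transcription factor gene, at 88.4, 76.2, 72.7 and 148 in control and 42.2, 156, 5.3 and 5.1 in knockout replicates 1 to 4. Like Krt8 of the mesothelial list, Hnf4a was highest in knockout replicate 2 and lowest in knockout replicate 4. Which cells its RNA came from was not tested. Neutrophil genes summed to 80 to 94 and 81 to 93.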
